A study of Homo sapiens with 6 samples.

Results

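The lysyl oxidase family has 5 genes in human, LOX, LOXL1, LOXL2, LOXL3 and LOXL4, and all 5 were found by symbol among the 59608 genes of the count table. They were examined in RNA-seq libraries of HepG2, an established human liver cancer cell line. The cells of both groups share the silencing of their own VEZF1 by an sgRNA, delivered by lentivirus. They differ in the form of VEZF1 that was expressed in its place, VEZF1-WT in one group and VEZF1-2A in the other. VEZF1 is a zinc finger transcription factor, and VEZF1-2A has alanine in place of 2 serines that can carry O-GlcNAc, a single sugar that cells attach to proteins. The question is which genes differ in mRNA between cells with the unchanged form and cells whose VEZF1 lacks these serines. There were 3 libraries of each group, and the labels state neither whether they came from separate cultures nor whether the cells were 1 clone or a pool, and the promoter that drives the re-expressed forms is not given for these cells in the sources used here. The spread between libraries may be technical. Libraries of parental HepG2 cells, or of cells with no form put back, were not analysed here.

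Lysyl oxidases are copper enzymes that leave the cell through the secretory pathway. They oxidize lysine side chains of collagen and elastin to aldehydes, which then react with each other and join the fibres by covalent cross-links. LOX itself is made as a proenzyme and is cut by the protease BMP1. LOXL1 is known for its part in the upkeep of elastic fibres, while LOXL2, LOXL3 and LOXL4 carry scavenger receptor domains in front of the shared catalytic end. In liver, cross-linked collagen is a feature of fibrosis, and hypoxia and TGF-beta are well known to raise LOX. LOXL2 and LOXL3 have also been linked to the transcription factor SNAI1 and to loss of epithelial features.

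VEZF1 is known to bind runs of G, so the promoter windows of the family in RefSeq (GRCh38.p14, 250 bases before to 50 bases after a start) were searched for 6 or more G in a row, which is the motif GGGGGG, or its reverse complement CCCCCC. Of all 35116 windows in the table, 18.8% hold such a run. The table has 7 windows for 4 of the 5 genes, and 3 of the 7 hold a run. With the most upstream window of each taken, LOX and LOXL3 have 1 run and LOXL4 has 6, while LOXL1 has none. The stretches below lie upstream of every annotated exon and belong to LOX, which differed most between the groups, and to LOXL4, whose window holds the most runs. Both are printed 5′ to 3′ on the minus strand with the runs in capitals. The LOX stretch is chr5:122078361-122078509 and the LOXL4 stretch is chr10:98268251-98268444.
LOX: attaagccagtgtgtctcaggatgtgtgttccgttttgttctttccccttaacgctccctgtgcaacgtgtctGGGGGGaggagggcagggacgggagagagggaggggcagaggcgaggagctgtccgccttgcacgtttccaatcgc
LOXL4: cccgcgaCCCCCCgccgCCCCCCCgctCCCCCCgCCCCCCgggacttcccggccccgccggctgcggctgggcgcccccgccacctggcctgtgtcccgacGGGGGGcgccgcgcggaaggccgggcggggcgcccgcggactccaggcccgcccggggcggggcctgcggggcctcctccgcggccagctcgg
The LOX stretch holds 1 run in 149 bases and the LOXL4 stretch 5 in 194. The window of LOXL4 is also the richest of the 4 in G and C, at 85.3% against 58% for LOX. These matches describe the letters only, since no binding was measured in the libraries used here.

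The libraries held from 28756765 to 57199396 counts, and the TMM factors that scale them lay between 0.977 and 1.014. Levels are given below as CPM, a gene's counts relative to the library total after this scaling, and in the order of replicates 1, 2 and 3. Of the counts from 1 to 10, 81% to 83% were even numbers. VEZF1 itself stood at 48.3 ± 9.95 CPM (SD, n = 3) with VEZF1-WT against 44.5 ± 5.06 CPM (SD, n = 3) with VEZF1-2A, with overlapping groups. Since reads of the endogenous gene and of the re-expressed forms are counted together, its count does not check the labels. The markers of HepG2 and hepatocytes were all present, with ALB at 3100 CPM in VEZF1-WT and 3250 CPM in VEZF1-2A. Of the markers of other cells, 5 of 10 for fibroblasts and stellate cells, 3 of 6 for endothelium and 4 of 6 for leukocytes had enough counts to be tested, and none of these 12 had an unadjusted p-value under 0.05. The summed CPM of the fibroblast list was 62.1 to 73 in VEZF1-WT and 66.8 to 81 in VEZF1-2A. Nearly all of it came from ACTA2 and TAGLN. Their means were 30.7 and 34.3 CPM in VEZF1-WT, against 32 and 35.8 CPM in VEZF1-2A. LUM had 0 counts in every library and DCN 0.0355 CPM at most. The endothelial list summed to 18.4 to 22.8 CPM in VEZF1-WT and 17.8 to 23.5 CPM in VEZF1-2A. Most of it came from LYVE1, with means of 17.8 CPM in VEZF1-WT and 18 CPM in VEZF1-2A. The leukocyte list summed to 671 to 777 CPM in VEZF1-WT and 661 to 758 CPM in VEZF1-2A, nearly all of it from LYZ and CD68, while PTPRC, which marks leukocytes at large, had at most 0.121 CPM. In bulk RNA, fewer cells of a type and less RNA per cell cannot be told apart.

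The family was expressed at a low level, and its genes differed in level per kilobase of exon (RPKM), with some ranges overlapping. LOXL4 and LOXL2 were the highest, at 1.84 ± 0.343 RPKM and 1.72 ± 0.343 RPKM (SD, n = 6). Their ranges over the 6 libraries, 1.5 to 2.26 for LOXL4 and 1.33 to 2.17 for LOXL2, overlapped, so the order of these neighbours is within their spread. LOXL3 followed with 0.513 ± 0.0872 RPKM (SD, n = 6), and its highest library, at 0.658, lay below the lowest of LOXL2. LOX had 0.318 ± 0.168 RPKM (SD, n = 6), with a range of 0.132 to 0.531 that overlapped that of LOXL3, from 0.4. LOXL1 was near absent, with at most 0.055 RPKM in a library. The 5 genes together held from 597 to 1040 counts per library. By mean CPM, LOXL2 stood above 54.2% of the 19111 genes tested, LOXL4 above 46.5%, LOXL3 above 31.3% and LOX above 27.6%.

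**Figure D1:**
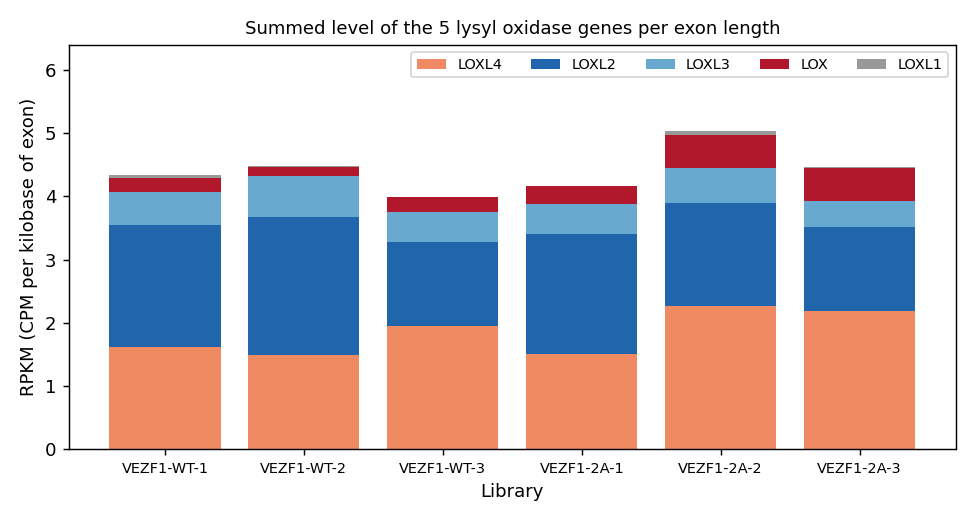
Level per exon length (RPKM, vertical axis) of the 5 genes, stacked, in each of the 6 libraries (horizontal axis). LOXL4 and LOXL2 make up most of every bar, the sum lies between 4 and 5.04 RPKM, and the LOX segment is widest in VEZF1-2A-2 and VEZF1-2A-3.

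The summed level of the groups overlapped, at 4.27 ± 0.244 RPKM (SD, n = 3) with VEZF1-WT against 4.55 ± 0.445 RPKM (SD, n = 3) with VEZF1-2A, while the part of LOX in it did not. LOX took 5.09%, 2.94% and 5.76% of the summed RPKM in the VEZF1-WT libraries. With VEZF1-2A it took 6.54%, 10.6% and 11.7%. The shares of the groups did not overlap, although replicate 1 of VEZF1-2A lay close to the highest VEZF1-WT library. By CPM, the groups did not overlap in 7.36% of all genes tested. The shares restate the LOX values, and the family was chosen with the difference between the groups in view, so nothing is read from them.

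The groups were compared over all genes with edgeR's quasi-likelihood test. Of the 19111 genes tested, 0 had an adjusted p-value under 0.05, which is 0% and includes the 4 members tested. Before adjustment 408 genes, or 2.13%, were under 0.05, 0.832% with VEZF1-WT higher and 1.3% with VEZF1-WT lower. DESeq2 called 3 genes at an adjusted p-value under 0.05 and limma voom 0, none of them a member. Without the filter on low counts, edgeR called 16 of 38745 genes, LOX among them. No other setting called a member, and nothing is read from that call, for the reason given next. The family was selected on the counts of these same 6 libraries, with results on their difference between the groups in view, so its members are described below without a test. Each log2 fold change sets VEZF1-WT against VEZF1-2A, and a negative value means more in VEZF1-2A.

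LOX, the founding member, whose loss weakens arteries and other elastic tissue, had the widest difference of the family. The VEZF1-WT libraries held 1.23, 0.73 and 1.28 CPM, against 1.51, 2.95 and 2.9 CPM with VEZF1-2A. All 3 VEZF1-2A libraries lay above all 3 of VEZF1-WT, but replicate 1 of VEZF1-2A stood nearer to VEZF1-WT than to the other VEZF1-2A libraries. The means were 1.08 ± 0.302 CPM (SD, n = 3) with VEZF1-WT against 2.45 ± 0.816 CPM (SD, n = 3) with VEZF1-2A, 2.27 times higher in VEZF1-2A. On the log2 scale the fold change was −1.17 with a standard error of 0.29. An absolute log2 fold change at least this large was found in 0.194% of all genes tested, beside a median absolute log2 fold change of 0.07. The genes tested were of all levels, and LOX stood above 27.6% of all genes tested by mean CPM. LOX was the 1 member of the 4 tested whose groups did not overlap, and the groups did not overlap in 7.36% of all genes tested, 3.5% with VEZF1-WT higher and 3.86% with it lower. Nothing is read from this count or from the place of LOX among the fold changes, since the choice of the family made use of the same contrast.

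The LOX values rest on few reads. The raw counts were 58, 26 and 72 with VEZF1-WT against 44, 118 and 96 with VEZF1-2A. All 6 are even, so 2 counts may stand for 1 read pair, which would leave 13 pairs in the lowest library and 59 in the highest. With the counts taken as pairs, the 95% exact Poisson interval, which covers counting error only, ran from 0.946 to 2.29 CPM in replicate 1 of VEZF1-2A and from 0.896 to 1.77 CPM in replicate 3 of VEZF1-WT. These neighbouring libraries could not be told apart at this depth. Replicates 2 and 3 of VEZF1-2A had intervals of 2.25 to 3.81 and 2.14 to 3.84 CPM, above 1.77 CPM, the highest upper bound of a VEZF1-WT library. The intervals do not cover spread beyond counting. Nothing is read from this separation, since the family was chosen with the contrast in view. With each library left out in turn, the log2 fold change of LOX ran from −1.41 without replicate 1 of VEZF1-2A to −0.98 without replicate 2 of VEZF1-WT.

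**Figure D2:**
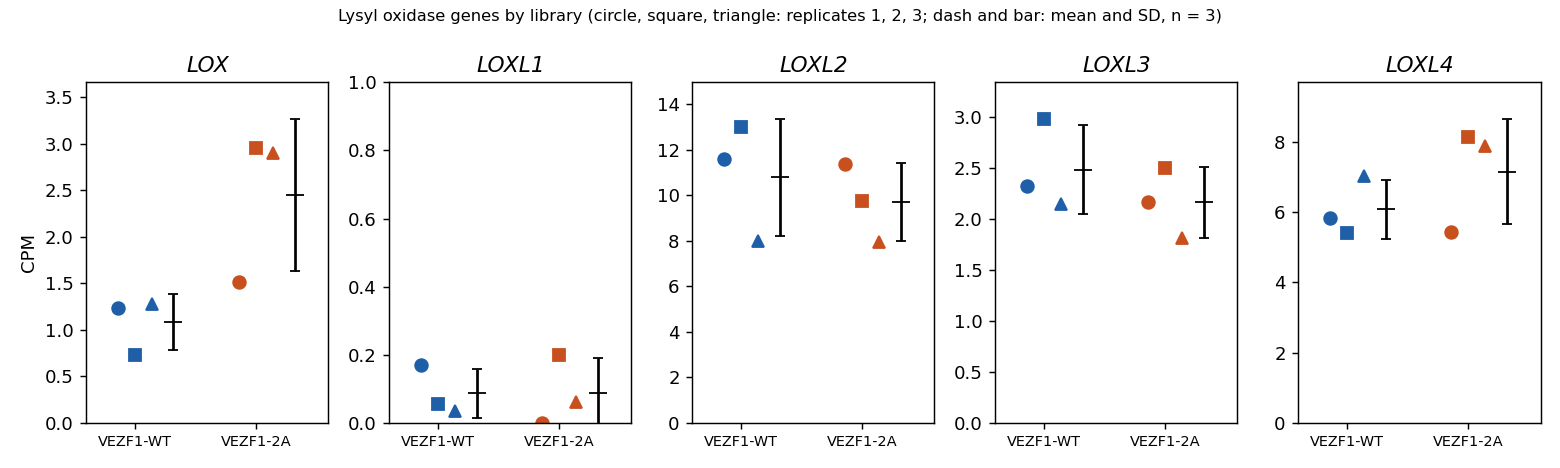
CPM (vertical axes, each from 0 and on its own scale) of the 5 genes in the 3 VEZF1-WT libraries (blue) and the 3 VEZF1-2A libraries (orange), with the mean and SD of each group beside the points. The LOX points do not overlap between the groups, with 1.28 CPM as the highest of VEZF1-WT and 1.51 CPM as the lowest of VEZF1-2A, while those of the other 4 genes do.

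LOXL4, which like LOXL2 and LOXL3 carries scavenger receptor domains, had a mean of 6.08 ± 0.837 CPM (SD, n = 3) with VEZF1-WT against 7.15 ± 1.5 CPM (SD, n = 3) with VEZF1-2A. The VEZF1-WT libraries held 5.83, 5.39 and 7.01 CPM, against 5.42, 8.14 and 7.87 CPM with VEZF1-2A. The groups overlapped, since replicate 1 of VEZF1-2A lay among the VEZF1-WT libraries. The log2 fold change was −0.23 with a standard error of 0.16. It was closest to 0 without replicate 2 of VEZF1-2A, at −0.13, and farthest from it without replicate 1 of that group, at −0.39.

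LOXL2, an enzyme that acts on collagen of the basement membrane among others, had a mean of 10.8 ± 2.57 CPM (SD, n = 3) with VEZF1-WT against 9.71 ± 1.71 CPM (SD, n = 3) with VEZF1-2A. By library it was at 11.6, 13 and 7.98 CPM with VEZF1-WT, against 11.4, 9.77 and 7.96 CPM with VEZF1-2A. Replicate 3 of either group was its lowest, and the VEZF1-2A range lay almost wholly within that of VEZF1-WT. The log2 fold change was 0.15 with a standard error of 0.18, and it shrank to 0.01 without replicate 2 of VEZF1-WT and grew to 0.34 without replicate 3 of VEZF1-WT.

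LOXL3, which is needed for normal cartilage and palate in mice, had a mean of 2.48 ± 0.436 CPM (SD, n = 3) with VEZF1-WT against 2.16 ± 0.344 CPM (SD, n = 3) with VEZF1-2A. By library it was at 2.32, 2.98 and 2.15 CPM with VEZF1-WT, against 2.16, 2.5 and 1.81 CPM with VEZF1-2A, so the groups overlapped. The log2 fold change was 0.19 with a standard error of 0.19, between 0.05 without replicate 2 of VEZF1-WT and 0.31 without replicate 2 of VEZF1-2A. Per kilobase, LOX stood at 0.2 to 0.485 times the level of LOXL3 in the VEZF1-WT libraries and at 0.569 to 1.3 times in the VEZF1-2A libraries, where it passed LOXL3 in replicate 3. These ratios reuse the LOX values, so nothing is read from their separation either.

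LOXL1 was too low to be tested. It had 8, 2 and 2 counts with VEZF1-WT against 0, 8 and 2 with VEZF1-2A. The upper limits of the 95% exact Poisson intervals, with 2 counts per pair, lay between 0.198 and 0.512 CPM, with 0.253 CPM for the library with 0 counts, and no fold is given.

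**Figure D3:**
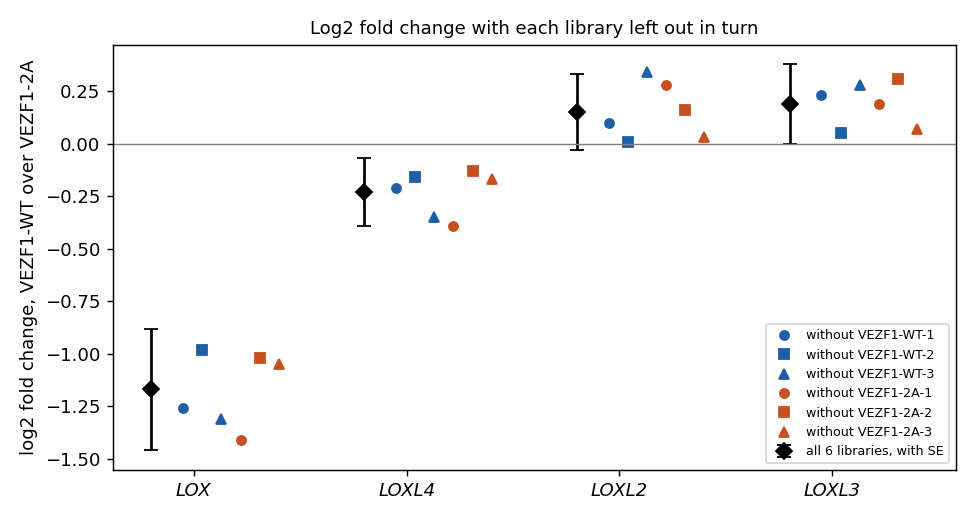
Log2 fold change of VEZF1-WT over VEZF1-2A (vertical axis) for the 4 genes tested, with all 6 libraries (diamond, bar: standard error) and with each library left out (coloured points). LOX stays between −1.41 and −0.98, LOXL4 stays below 0, and LOXL2 and LOXL3 come as near to 0 as 0.01 and 0.05.

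Over the 4 members tested, 2 had a higher and 2 a lower level in VEZF1-WT, with a median log2 fold change of −0.04 beside 0.00 over all genes tested. Without replicate 2 of VEZF1-2A the median was 0.02, on the other side of 0.

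The 4 genes did not move as one across the libraries. LOXL2 was at its highest where LOXL4 was at its lowest, in replicate 2 of VEZF1-WT. The ratio of LOXL4 to LOXL2 in CPM was 0.504 and 0.416 in replicates 1 and 2 of VEZF1-WT and 0.476 in replicate 1 of VEZF1-2A, and it was 0.878 in replicate 3 of VEZF1-WT and 0.834 and 0.989 in replicates 2 and 3 of VEZF1-2A. No library lay between 0.504 and 0.834, and both ranges held libraries of both groups. The summed CPM of the 12 hepatocyte and HepG2 markers was 20400, 20500 and 24600 with VEZF1-WT, against 20200, 22800 and 24000 with VEZF1-2A. The libraries with the 3 highest ratios also had the 3 highest sums. The summed CPM of the 13 proliferation genes was 2010, 1600 and 1940 with VEZF1-WT, against 1670, 1590 and 2020 with VEZF1-2A, and did not follow that order. The part of either in the ratio was not tested.

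**Figure D4:**
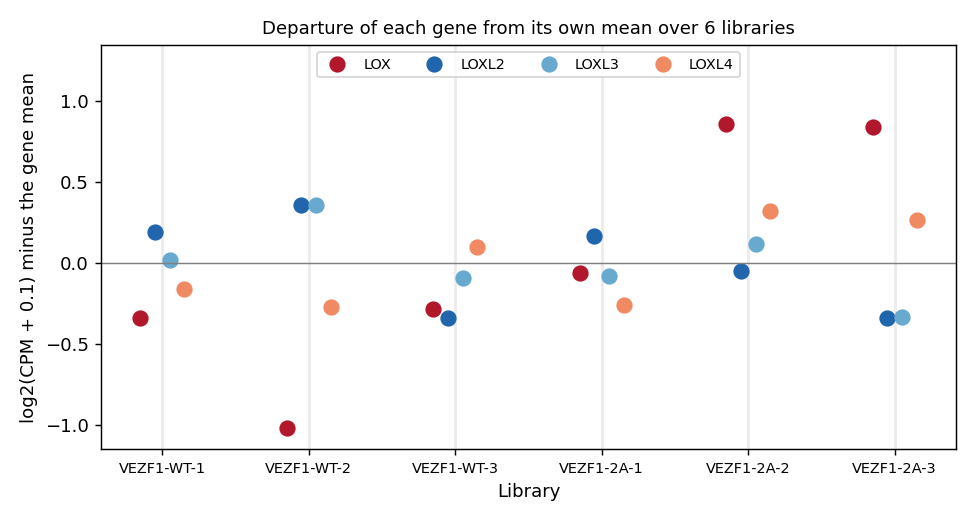
Departure of log2(CPM + 0.1) from the mean of each gene over the 6 libraries (vertical axis) for the 4 genes tested, by library (horizontal axis). LOX runs from −1.02 in VEZF1-WT-2 to 0.86 in VEZF1-2A-2, and LOXL2 and LOXL4 lie on opposite sides of 0 in every library.

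The likeness of 2 profiles was measured as the root mean square difference of log2(CPM + 0.1), centred per gene, over the 6 libraries. Within the family, LOXL2 and LOXL3 were the closest pair, at 0.175, and LOX and LOXL2 the farthest, at 0.86. LOX and LOXL4 differed by 0.483. Among all genes tested, PNCK (0.202), ZBTB3 (0.248) and AL109615.2 (0.262) were nearest to LOX, beside a median of 0.682 over all genes, and all 3 are genes of under 2 CPM. Nearest to LOXL4 was TF, which encodes the plasma iron carrier transferrin, at 0.06, then BPIFB2 at 0.064 and AC079416.4 at 0.07. TF, itself 1 of the 12 hepatocyte markers summed above, had 751, 658 and 895 CPM with VEZF1-WT, against 667, 920 and 953 CPM with VEZF1-2A. LOXL2 was nearest to PFKP, a phosphofructokinase of glycolysis, at 0.064, followed by AQP4-AS1 (0.068) and AL161662.1 (0.07). LOXL3 was nearest to AL355075.2 (0.047), the cyclin gene CCND3 (0.063) and the phosphatase gene DUSP4 (0.064). These neighbours were picked among 19111 genes over 6 libraries and are given as a description.

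The genes lie on 5 chromosomes. In the deposited table, with coordinates of GRCh38, LOX spans 122063195 to 122078360 on chromosome 5 (minus strand), and LOXL1 spans 73925989 to 73952137 on chromosome 15 (plus strand). LOXL2 spans 23296897 to 23425328 on chromosome 8 (minus strand). LOXL3 spans 74532258 to 74555690 on chromosome 2 (minus strand), and LOXL4 spans 98247690 to 98268194 on chromosome 10 (minus strand). All 5 are protein-coding, and the counts are sums over all exons of a gene, with no split by transcript. Reads on exons shared with a neighbour could have been counted for either gene, since the strand setting is not stated in the sources used here. LOX shares 138 of its 5547 exon bases with SRFBP1 on the other strand, which had between 16.9 and 18.4 CPM in every library, with a log2 fold change of 0.04. LOXL3 shares the most, 18.3% of its exon bases, 609 with HTRA2 (4.26 to 6.47 CPM) and 216 with DOK1, which had at most 14 counts. LOXL2 shares 5% with ENTPD4 and AC090197.1, LOXL4 4.2% with AL139241.1 and LOXL1 9.2% with LOXL1-AS1. The share of exon bases is not the share of reads. SRFBP1 had 5.76 ± 0.176 RPKM (SD, n = 6), far above the 0.318 RPKM of LOX. Reads of SRFBP1 on the shared bases could therefore be a sizeable part of the LOX counts. HTRA2 had 2.02 ± 0.329 RPKM (SD, n = 6), above the 0.513 RPKM of LOXL3, so the same could hold for LOXL3. The part of such reads was not tested.

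The genes around the family make, modify, cut and hold its substrates, supply its copper or regulate it. They were taken as 7 lists with 82 genes, of which 66 were tested. In edgeR's quasi-likelihood test 0 of the 66 had an adjusted p-value under 0.05, and 2 had an unadjusted p-value under 0.05, which is 3.03% beside 2.13% of all genes. Both were lower in VEZF1-WT, where 1.3% of all genes were. DESeq2 and limma voom also gave 2 list genes at an unadjusted p-value under 0.05, and none of the list genes was among the 3 calls of DESeq2. The groups did not overlap in 4 of the 66 genes, or 6.06%, against 7.36% of all genes, and the median log2 fold change was −0.04. The collagen gene COL4A1 is in both counts. It passed the filter on low counts only through VEZF1-2A, so nothing is read from its part in them.

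The substrates themselves were scarce. Of 8 collagen and elastin genes 6 were tested, with 3 higher and 3 lower in VEZF1-WT and a median log2 fold change of −0.19. COL4A1, a chain of the basement membrane collagen, was 1 of these 2 list genes, and it rests on 2, 4 and 8 counts with VEZF1-WT, against 8, 12 and 10 counts with VEZF1-2A. The log2 fold change of COL4A1 was −1.52 with a standard error of 0.52 (unadjusted p = 0.0141, adjusted p = 0.9996 by edgeR), and the groups did not overlap. COL4A1 had 0.0423, 0.112 and 0.142 CPM with VEZF1-WT, against 0.274, 0.3 and 0.302 CPM with VEZF1-2A. It passed the filter on low counts only through VEZF1-2A, so nothing is read from its p-value or from this separation. COL1A1, a chain of the main fibrillar collagen, had 0.972, 0.674 and 1.03 CPM with VEZF1-WT, against 1.37, 0.949 and 1.75 CPM with VEZF1-2A. These groups overlapped, with a log2 fold change of −0.58 and a standard error of 0.29. COL5A2, which has the highest level per kilobase in the list, at 0.311 ± 0.0914 RPKM (SD, n = 6), had a log2 fold change of 0.27 with a standard error of 0.27. In RPKM, COL5A2 stood at 0.34 ± 0.0691 beside 0.194 ± 0.0545 for LOX with VEZF1-WT (SD, n = 3), and at 0.282 ± 0.117 beside 0.442 ± 0.147 for LOX with VEZF1-2A (SD, n = 3).

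Of the 16 genes that modify collagen lysine and proline or fold the chains, 15 were tested, with a median log2 fold change of −0.04. P4HA2, a catalytic subunit of prolyl 4-hydroxylase, was the other of the 2. It had 29, 31.7 and 31 CPM with VEZF1-WT, against 31.7, 36.4 and 36.8 CPM with VEZF1-2A, so replicate 1 of VEZF1-2A lay just above replicate 2 of VEZF1-WT, with the same value after rounding. The log2 fold change was −0.2 with a standard error of 0.08 (unadjusted p = 0.0257, adjusted p = 0.9996 by edgeR). PPIB, a prolyl isomerase, and P4HB, the subunit that the hydroxylases share, were the highest of the list per kilobase and had log2 fold changes of 0.04 and 0.01. P4HA3, another catalytic subunit, and LTBP3, a matrix protein that holds latent TGF-beta, complete the 4 genes whose groups did not overlap. Both were named after their values were seen, and their log2 fold changes were −0.1 and −0.12.

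BMP1, the protease that frees active LOX, was even across the libraries, at 19.9 ± 0.356 CPM (SD, n = 3) with VEZF1-WT against 20.2 ± 0.507 CPM (SD, n = 3) with VEZF1-2A. Only 4 of the 8 propeptide proteases and their helpers were tested, with a median log2 fold change of −0.11, and PCOLCE, an enhancer of BMP1, had a log2 fold change of 0.22 with a standard error of 0.3. Among the 12 scaffold genes tested of 19, the median was −0.09. FN1, or fibronectin, to which BMP1 and LOX are known to bind, was by far the most abundant, at 6370 ± 396 CPM (SD, n = 3) with VEZF1-WT against 6680 ± 572 CPM (SD, n = 3) with VEZF1-2A. EMILIN1, a glycoprotein of elastic fibres, had 25.2 ± 4.43 and 26.3 ± 6.52 CPM (SD, n = 3 each).

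All 8 genes of copper supply were tested, with a median log2 fold change of 0.00. Their summed CPM was 561, 696 and 456 with VEZF1-WT, against 655, 704 and 434 with VEZF1-2A, so replicate 3 was the lowest in either group, as it was for LOXL2. Most of this sum was MT2A, a metallothionein, with 423, 560 and 311 CPM against 518, 562 and 299 CPM. COMMD1, a copper homeostasis protein, had a log2 fold change of 0.01.

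Of the 15 regulators of lysyl oxidase genes 14 were tested, TWIST1 having 0 counts in every library. Of those tested, 3 were higher and 11 lower in VEZF1-WT. Their median log2 fold change was −0.03, beside 0.00 over all genes tested. The share of all genes that were lower in VEZF1-WT was not counted, so nothing is read from this split. HIF1A, the oxygen-regulated factor under which LOX is known to rise, had 250 ± 22.6 CPM (SD, n = 3) with VEZF1-WT against 256 ± 30.3 CPM (SD, n = 3) with VEZF1-2A. TGFBR2, a receptor of TGF-beta, had a log2 fold change of −0.01 with a standard error of 0.06. The remaining amine oxidases, which use monoamines, polyamines or methylated histones and are not part of the family, had a median of 0.02 over the 7 tested of 8. KDM1A, a histone demethylase, and SMOX, which oxidizes spermine, were the highest of them, with log2 fold changes of 0.04 and −0.11.

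**Figure D5:**
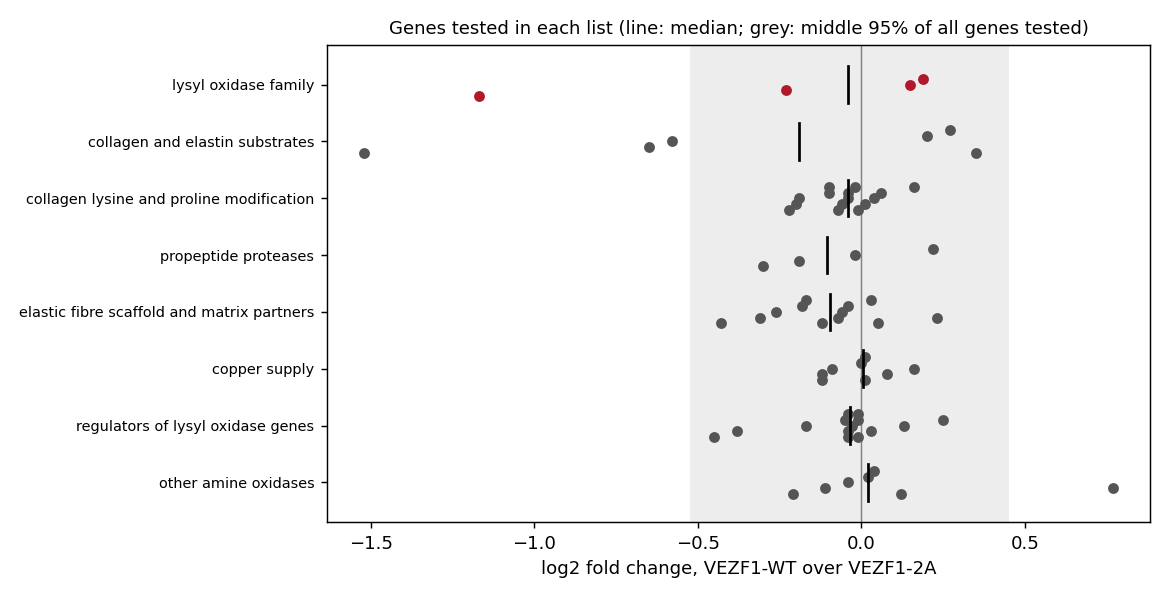
Log2 fold change of VEZF1-WT over VEZF1-2A (horizontal axis) for the 4 family genes tested and for the genes tested of each list (rows), 1 point a gene, with the median of each row as a bar and the middle 95% of all genes, −0.52 to 0.45, shaded. LOX at −1.17 and COL4A1 at −1.52 lie farthest to the left of the shaded band, COL1A1 at −0.58 and the elastin gene ELN at −0.65, named after its value was seen, also lie left of it, and 1 of the other amine oxidases lies right of it at 0.77. The list medians lie between −0.19 and 0.02. COL4A1 passed the filter on low counts only through VEZF1-2A.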

How the data were processed

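RNA of HepG2 cells was isolated with a column kit and made into SMARTER mRNA-seq libraries, per the labels. The authors deposited 1 table of raw counts per gene for the 6 libraries, with exon coordinates and length, on GRCh38. The aligner, counter and strand setting are not given in the sources used here. The table has 59613 lines, of which 5 broken lines were left out. Library totals ran from 28756765 to 57199396 counts, and counting intervals cover counting error only.

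Genes were filtered with filterByExpr, scaled with TMM and compared with edgeR 4.0.16 (quasi-likelihood, Benjamini-Hochberg over 19111 genes, R 4.3.3). DESeq2 1.42.0, limma voom 3.58.1, no filter, other scalings, halved counts, a replicate block and each library left out were the alternatives. RPKM is CPM per kilobase of the deposited exon length. Profiles used log2(CPM + 0.1). The test code was tested on simulated data. Within each group, counts differed between libraries beyond sampling noise (chi-square over genes), and each library was taken as 1 sample. This spread does not show that the libraries came from separate cultures.

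The family and all lists were chosen with earlier results of these data known. Genes were named if they are members, share exon bases with one, are list genes with an unadjusted p-value under 0.05 or the 2 highest per kilobase of their list, or are the 3 nearest to a member in profile. Markers and the 2 further list genes without overlap of the groups come in addition.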

Additional observations from a re-analysis of the deposited data

How the results depend on the processing

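The log2 fold changes of LOX, LOXL2, LOXL3 and LOXL4 kept their direction under all 15 alternatives, between −1.41 and −0.98 for LOX and between 0.01 and 0.34 for LOXL2. The median of the 4 ran from −0.1 to 0.02 with 1 library left out and reversed, at 0.02, without replicate 2 of VEZF1-2A. The count of genes with an adjusted p-value under 0.05 was 0 with all libraries. It was 16 of 38745 genes, or 0.0413%, without the filter on low counts, with LOX among them, and 3 by DESeq2, without a member. Nothing is read from the LOX call, since the family was chosen with this contrast in view. Genes with an unadjusted p-value under 0.05 numbered 408, and 896 without the filter, 219 by DESeq2, and 292 to 973 with 1 library left out, the most without replicate 3 of VEZF1-2A. List genes with an unadjusted p-value under 0.05 numbered 2, and 6 without the filter, 1 with counts halved, and 0 to 5 with 1 library left out, 0 without replicate 1 of VEZF1-WT and 5 without replicate 1 or 3 of VEZF1-2A. The causes were not tested.

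Same-numbered libraries are not shown to be paired, since their deviations correlated at 0.08, 0.15 and 0.38 and replicate 2 of VEZF1-WT correlated best with replicate 1 of VEZF1-2A, at 0.18. With the replicate number as a block, 6 genes had an adjusted and 825 an unadjusted p-value under 0.05, among them no member at the adjusted value, and 8 list genes an unadjusted one. LOX rests on 26 to 118 counts per library and LOXL1 on 8 at most, which limits what these libraries can show of either.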
